A study of Homo sapiens with 1536 samples.

Results

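The compounds described are 7 small molecules that act on microbes, on metal ions or on energy metabolism: Ciclopirox, Nitroxoline, Niclosamide, Tigecycline, STF31, Phloretin and AZD7545. They were chosen by name and make up 4.02% of the compounds with deposited relative cell numbers, and their rule uses names and no measured value, although earlier results of these data were known when they were chosen. Each compound was given at 0.01, 0.1, 1 and 10 µM in 2 replicate wells, so the 7 compounds account for 56 wells and, with 5 cell lines per well, for 140 of 3480 combinations of compound, dose and line. By their known actions they form 3 groups: metal chelators (Ciclopirox, Nitroxoline), mitochondrial toxicants (Niclosamide, Tigecycline) and inhibitors of glucose use (STF31, Phloretin, AZD7545).

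Every well held the same mixture of 5 human breast cancer cell lines, the triple-negative BT-20, HCC-38 and MDA-MB-231, the HER2 positive SKBR3 and the estrogen receptor positive ZR-75-1. Each line carried a doxycycline-inducible Cas9 and was itself a mixture of 12 sgRNA populations, 11 against single genes and 1 pool of non-targeting sgRNAs (sgNT). The wells were exposed to compound or to the solvent DMSO for 72 h, and all of them, the 96 DMSO wells included, received doxycycline at 100 ng/mL. Doxycycline is a tetracycline, the drug family from which Tigecycline derives, so DMSO wells and Tigecycline wells shared that exposure. All lines grew in 1 well, so medium and cell-cell contact were shared by the lines of a well, and a lower relative cell number does not tell slower growth from cell loss.

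Iron and other transition metals serve as cofactors of many enzymes, among them ribonucleotide reductase and the dioxygenases that sense oxygen. Ciclopirox is a hydroxypyridinone antifungal that binds iron, and Nitroxoline is a nitro-substituted hydroxyquinoline used against urinary bacteria that also binds divalent metals. Niclosamide is a salicylanilide against tapeworms that carries protons across the inner mitochondrial membrane and so uncouples respiration. Tigecycline is a glycylcycline antibiotic that binds the bacterial ribosome and also slows translation on the mitochondrial ribosome. STF31 was described as an inhibitor of the glucose transporter GLUT1 and later also of NAMPT, an enzyme of NAD synthesis. Phloretin is a dihydrochalcone from apple that blocks glucose transporters. AZD7545 inhibits pyruvate dehydrogenase kinase, which switches off the mitochondrial enzyme that oxidises pyruvate, so it redirects glucose carbon rather than stopping its uptake.

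The lines were told apart by a short DNA barcode downstream of the sgRNA. These sequences are shown because every value below is a count of reads that carry one of them, all bases of the barcode being read. The last barcode marks the added standard cells, a human embryonic kidney line of known cell number by which reads are turned into cells.
ZR-75-1: ATCACTGG
SKBR3: CGGTGACC
HCC-38: TACAGAGG
MDA-MB-231: TAACAGTT
BT-20: ATTGTCAA
Standard cells: GCTGGATT

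Relative cell number is the cell number estimated for an sgRNA population of a line, as a percent of the median of the DMSO wells. It is given here as the mean over the 12 sgRNA populations of a line, with the values of replicate 1 and replicate 2 in that order. The 96 DMSO wells ran from 61.5 to 152.2% in ZR-75-1, from 68.9 to 140.6% in SKBR3, from 84.3 to 136.8% in HCC-38, from 81.6 to 139.1% in MDA-MB-231 and from 78.9 to 137.1% in BT-20. The 56 compound wells held 76363 to 1161033 reads with a median of 478019, and the DMSO wells 155067 to 986006. The shallowest were replicate 2 of Tigecycline at 10 µM with 76363 reads and at 1 µM with 77636 reads, and replicate 1 of AZD7545 at 10 µM held 95238 reads. In replicate 2 of Niclosamide at 10 µM the straight line through the standard cells had a slope of 1.78 and an r2 of 0.876, beside a slope of 1.34 and an r2 of 0.995 in replicate 1. The lowest r2 of the 56 compound wells was 0.858, in replicate 2 of Tigecycline at 10 µM, where the slope was 1.01. Reads that paired barcodes in a combination that no cell carried made up 0.171 to 1.98% of a well for Phloretin (median 1.49%), beside medians of 0.122 to 0.215% for the other 6 compounds and 0.183% for DMSO. The 2 wells of a compound and dose came from different plates, and each dose had plates of its own, so dose and plate cannot be told apart. The plates of each dose and replicate held 12 DMSO wells, whose mean differed from that of all DMSO wells by -0.15 to 0.12 on the log2 scale in ZR-75-1 and by less in the other lines. The study's methods describe replicates as separate biological samples. They also describe a diluted compound that was then divided over the replicate wells, so the 2 wells shared that dilution. With 2 wells per compound and dose the error was estimated from the spread over all fitted wells. This error does not include variation between dilutions of a compound.

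Of the 140 combinations of compound, dose and line, 32 were lower than DMSO and 0 were higher (limma, two-sided, Benjamini-Hochberg adjusted over 3480 combinations of all compounds). Over all compounds and doses 31.9% of combinations were lower and 1.61% higher. Ciclopirox gave 10 of the 32 calls, STF31 8, Nitroxoline 5, Niclosamide 5, AZD7545 4, and Tigecycline and Phloretin 0. At 0.01 and 0.1 µM no compound passed in any line, beside 7.04 and 18.4% of combinations over all compounds given at these 4 doses. At 1 µM 8 of 35 combinations were lower, beside 32.1%, and at 10 µM 24 of 35 were lower, beside 65.2%.

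**Figure D1:**
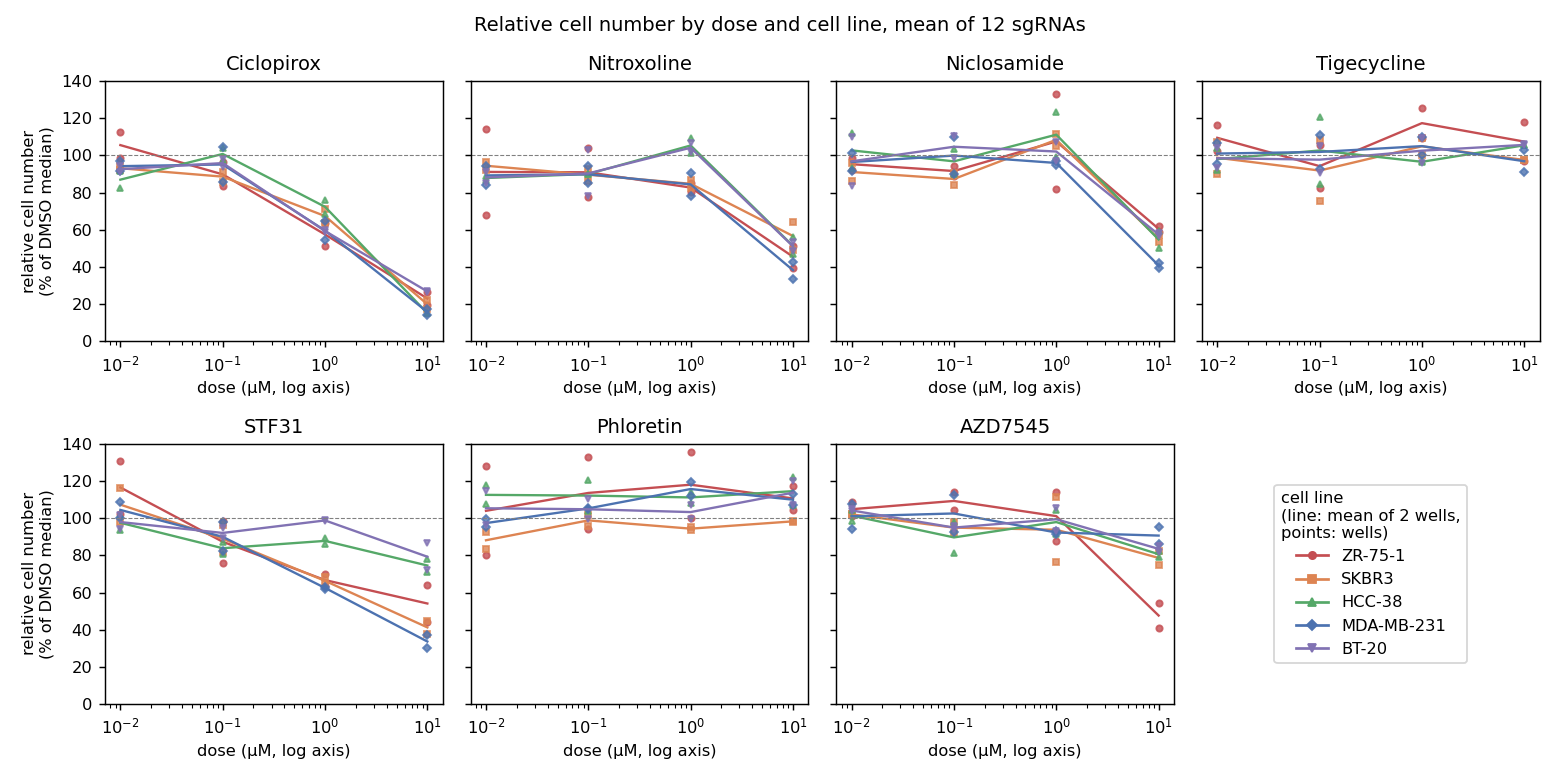
Relative cell number (percent of the DMSO median, mean of 12 sgRNA populations) against dose (µM, log axis) for the 7 compounds, with 1 colour per cell line, points for the 2 wells and a line through their mean. Ciclopirox fell at 1 µM and further at 10 µM in all 5 lines, Nitroxoline and Niclosamide fell at 10 µM, STF31 separated the lines, and Tigecycline and Phloretin stayed within the DMSO range at 10 µM.

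Ciclopirox lowered the relative cell number of all 5 lines, and at 10 µM by the largest amount among the 7 compounds in each line. At 0.01 and 0.1 µM its wells lay between 82.5 and 112.7%. At 1 µM they read 51.3 and 63.8% in ZR-75-1, 63.7 and 71.1% in SKBR3, 76.1 and 68.7% in HCC-38, 54.3 and 64.9% in MDA-MB-231, and 58.97 and 59.7% in BT-20. Of these 10 values, 8 lay below every DMSO well of their line. At 10 µM they read 26.5 and 19.6% in ZR-75-1, 22.3 and 17.6% in SKBR3, 15.1 and 15.3% in HCC-38, 17.7 and 14.03% in MDA-MB-231, and 26.9 and 26.8% in BT-20. All 10 were below every DMSO well, and the 2 replicates lay closest together in HCC-38 and BT-20, at the opposite ends of the order of lines. On the log2 scale the difference from DMSO at 10 µM ran from -1.91 ± 0.11 (SE, n = 2 wells; limma adjusted p = 6.26e-57) in BT-20 to -2.74 ± 0.11 (limma adjusted p = 7.66e-95) in HCC-38. At 1 µM it ran from -0.49 ± 0.11 (limma adjusted p = 9.16e-05) in HCC-38 to -0.82 ± 0.18 (limma adjusted p = 1.46e-05) in ZR-75-1. The mean of HCC-38 was the highest of the 5 lines at 1 µM and the lowest at 10 µM. Interpolated on the log dose axis, 50% was crossed in all 10 series of 1 line and 1 replicate, between 1.12 µM in ZR-75-1 and 2.68 µM in HCC-38.

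Nitroxoline, the other chelator, lowered all 5 lines at 10 µM only. Up to 1 µM its wells lay between 67.8 and 114.5%, and none of the 15 combinations passed. At 10 µM they read 51.5 and 39.6% in ZR-75-1, 64.2 and 49.1% in SKBR3, 55.9 and 46.8% in HCC-38, 42.9 and 33.7% in MDA-MB-231, and 53.4 and 48.9% in BT-20. Replicate 2 was the lower well in every line, and all 10 values were below every DMSO well of their line. The log2 difference from DMSO was largest in MDA-MB-231 (-1.41 ± 0.13, limma adjusted p = 5.57e-24) and smallest in SKBR3 (-0.83 ± 0.14, limma adjusted p = 6.03e-09). In 6 of 10 series 50% was crossed, between 5.16 and 9.56 µM.

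The 2 chelators differed at the same dose. At 10 µM Ciclopirox left fewer cells than Nitroxoline in all 5 lines, 3.37-fold fewer in HCC-38 (log2 difference -1.75 ± 0.16, limma adjusted p = 1.15e-24) and 1.90-fold fewer in BT-20 (-0.93 ± 0.15, limma adjusted p = 2.12e-08). In ZR-75-1 the means were 23.1 and 45.5% (log2 difference -0.99 ± 0.25, limma adjusted p = 0.000371). Tested on percents in place of log2 values, that difference was -22.5 percentage points and did not pass (limma adjusted p = 0.284), nor did it pass as reads over standard reads (-0.33 on the log2 scale, limma adjusted p = 0.234). At 1 µM the difference passed in BT-20, HCC-38 and MDA-MB-231. It did not pass in ZR-75-1 (log2 difference -0.53, 95% interval -1.01 to -0.05, limma adjusted p = 0.104) or SKBR3 (-0.33, 95% interval -0.71 to 0.04, limma adjusted p = 0.252). All p-values of this kind were adjusted over the 420 comparisons of 21 pairs, 4 doses and 5 lines. Of the 420, 26.9% passed, beside 39.9% among all pairs of compounds given at these doses. The latter were adjusted over their own 260820 comparisons, so the thresholds on the unadjusted p differ.

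Niclosamide, the uncoupler, also acted at 10 µM only. Its wells lay between 81.9 and 133.1% up to 1 µM, where both extremes were ZR-75-1 wells at 1 µM. At 10 µM they read 58.9 and 62.2% in ZR-75-1, 57.1 and 53.3% in SKBR3, 59.1 and 50.5% in HCC-38, 39.4 and 42.2% in MDA-MB-231, and 56.7 and 58.3% in BT-20. Of these, 9 were below every DMSO well, the exception being a ZR-75-1 well. The log2 difference from DMSO was -1.31 ± 0.13 in MDA-MB-231 (limma adjusted p = 5.86e-21) and between -0.74 ± 0.18 (limma adjusted p = 0.000117) and -0.89 ± 0.11 (limma adjusted p = 1.07e-13) in the other lines. All 5 calls were also made with either replicate alone, so they do not rest on the well with the poorer line through its standards. Only MDA-MB-231 crossed 50%, at 6.54 and 7.12 µM.

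Tigecycline, the other mitochondrial toxicant, was not distinguished from DMSO at any dose. Across all doses its wells lay between 75.6 and 125.4%. Replicate 2 at 10 µM was the well with the lowest r2 through its standard cells (0.858) and the fewest reads. At 10 µM they read 97.1 and 117.8% in ZR-75-1, 97.6 and 97.5% in SKBR3, 105.5 and 105.4% in HCC-38, 91.01 and 102.8% in MDA-MB-231, and 105.9 and 105.4% in BT-20, all within the DMSO range. The 95% intervals of the log2 difference from DMSO at 10 µM together ran from -0.32 in MDA-MB-231 to 0.43 in ZR-75-1, and the lowest adjusted p over its 20 combinations was 0.424 (limma). Niclosamide left fewer cells than Tigecycline at 10 µM in all 5 lines, from 1.77-fold fewer in ZR-75-1 (log2 difference -0.82 ± 0.25, limma adjusted p = 0.00397) to 2.37-fold fewer in MDA-MB-231 (-1.25 ± 0.19, limma adjusted p = 4.26e-10). At 0.01, 0.1 and 1 µM none of their 15 comparisons passed.

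**Figure D2:**
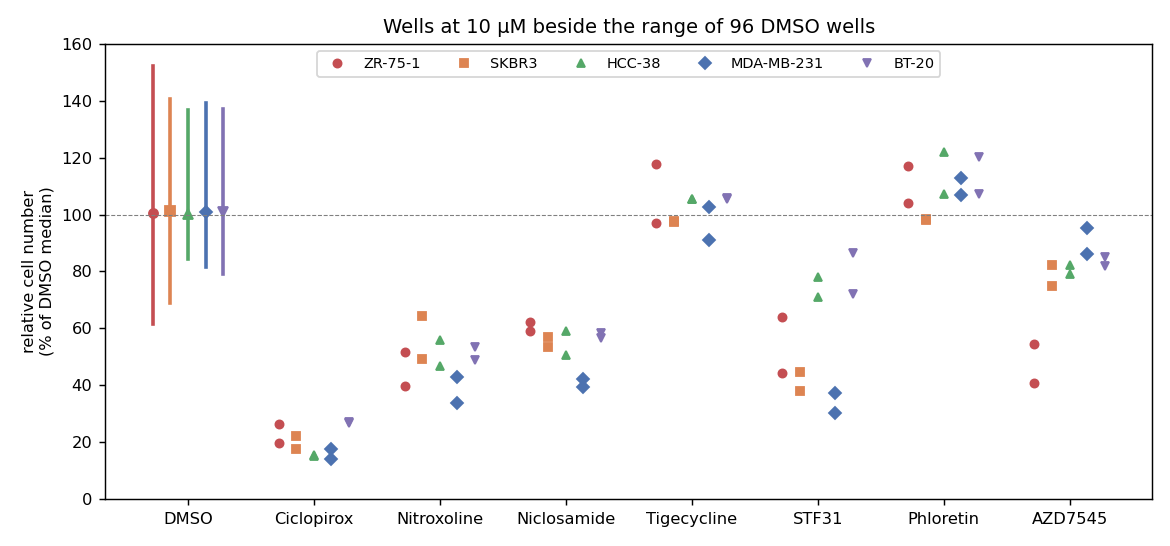
Relative cell number (percent of the DMSO median) of every well at 10 µM by compound, with 1 colour and symbol per cell line, beside the lowest to highest value (bar) and median (symbol) of 96 DMSO wells. All 10 values of Ciclopirox and of Nitroxoline lie below the DMSO bar of their line, and none of Tigecycline or Phloretin does.

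STF31 separated the lines more than the other 6 compounds did, with a 2.35-fold span between the highest and the lowest mean at 10 µM. At 0.01 and 0.1 µM its wells lay between 75.9 and 130.96%. At 1 µM they read 63.6 and 69.8% in ZR-75-1, 68.2 and 64.4% in SKBR3 and 62.1 and 62.9% in MDA-MB-231. In HCC-38 they read 89.4 and 86.1% and in BT-20 98.5 and 98.99%. The first 3 lines were lower than DMSO, with log2 differences of -0.60 ± 0.18 (ZR-75-1, limma adjusted p = 0.00242), -0.60 ± 0.14 (SKBR3, limma adjusted p = 5.22e-05) and -0.69 ± 0.13 (MDA-MB-231, limma adjusted p = 9.45e-07), and the other 2 did not pass. At 10 µM the wells read 44.1 and 64.1% in ZR-75-1, 37.9 and 44.6% in SKBR3, 70.9 and 78.1% in HCC-38, 30.2 and 37.1% in MDA-MB-231, and 72.1 and 86.4% in BT-20. All 5 lines were now lower than DMSO, MDA-MB-231 by -1.59 ± 0.13 (limma adjusted p = 7.39e-30) and BT-20 by -0.35 ± 0.11 (limma adjusted p = 0.00466) on the log2 scale. The BT-20 call was lost without replicate 1 (log2 difference -0.22, limma adjusted p = 0.336). The order of the 5 means was the same at 1 and 10 µM: MDA-MB-231 was lowest, then SKBR3, ZR-75-1 and HCC-38, and BT-20 was highest.

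No line was distinguished from DMSO with Phloretin. Over all doses its wells lay between 79.97 and 135.7%. At 10 µM they read 104.2 and 117.02% in ZR-75-1, 97.9 and 98.6% in SKBR3, 107.1 and 121.96% in HCC-38, 112.999 and 106.8% in MDA-MB-231, and 107.2 and 120.2% in BT-20. All were within the DMSO range and most were above 100%. The largest log2 difference from DMSO at 10 µM was 0.17 in HCC-38 (95% interval -0.05 to 0.40, limma adjusted p = 0.281). These wells also had the highest share of impossible barcode pairs, whose part in the values was not tested.

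AZD7545 acted on 1 line more than on the others. Up to 1 µM its wells lay between 76.4 and 114.3%. At 10 µM they read 54.4 and 40.9% in ZR-75-1, 82.2 and 74.997% in SKBR3, 79.04 and 82.2% in HCC-38, 86.03 and 95.2% in MDA-MB-231, and 81.96 and 84.97% in BT-20. ZR-75-1 was lower than DMSO by -1.10 ± 0.18 on the log2 scale (limma adjusted p = 3.13e-09). SKBR3, HCC-38 and BT-20 differed by -0.35 ± 0.14, -0.33 ± 0.11 and -0.27 ± 0.11 (limma adjusted p = 0.031, 0.0133 and 0.0407). These 3 calls were each lost without replicate 1 and without replicate 2, which left 1 call in either case. MDA-MB-231 did not pass (limma adjusted p = 0.441).

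Among the 3 inhibitors of glucose use, STF31 and Phloretin differed at 10 µM in all 5 lines. The difference was 3.28-fold in MDA-MB-231 (33.7 against 109.9%, log2 difference -1.71 ± 0.19, limma adjusted p = 4.56e-18) and 1.44-fold in BT-20 (79.2 against 113.7%, -0.52 ± 0.15, limma adjusted p = 0.00305). STF31 was lower than AZD7545 in SKBR3 (log2 difference -0.93 ± 0.19, limma adjusted p = 8.27e-06) and MDA-MB-231 (-1.43 ± 0.19, limma adjusted p = 5.15e-13). In ZR-75-1 they did not differ beyond the spread (0.17, 95% interval -0.31 to 0.66), nor in HCC-38 (-0.11, 95% interval -0.43 to 0.20) or BT-20 (-0.08, 95% interval -0.38 to 0.22). Phloretin was higher than AZD7545 in ZR-75-1 (log2 difference 1.23 ± 0.25, limma adjusted p = 5.59e-06), HCC-38 and BT-20.

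**Figure D3:**
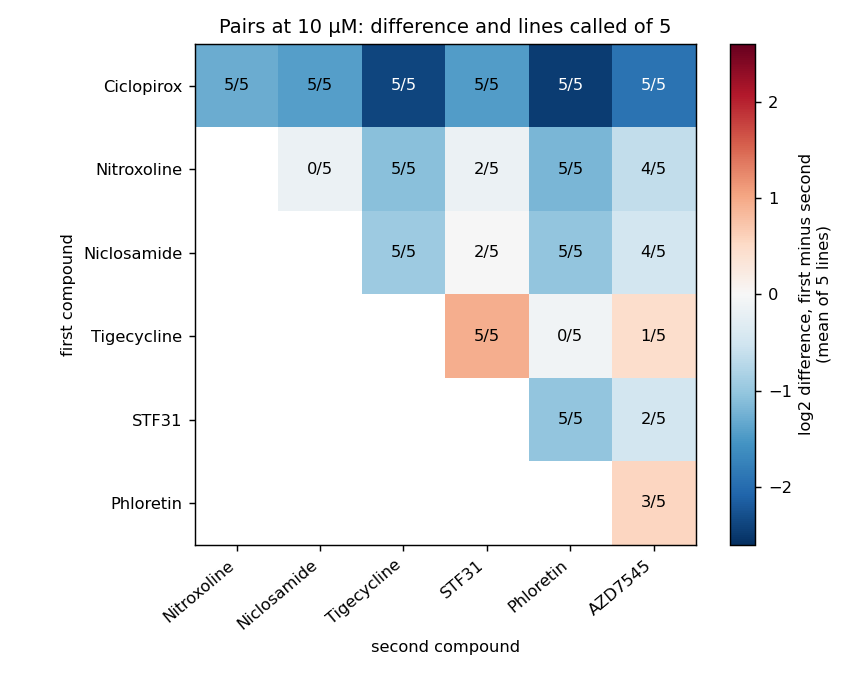
Differences between the 7 compounds at 10 µM, as the log2 relative cell number of the first (row) minus the second (column) compound averaged over 5 lines, with the number of lines of 5 that passed (limma adjusted p under 0.05) in each cell. Ciclopirox differed from every other compound in 5 of 5 lines, and the pairs Nitroxoline and Niclosamide, and Tigecycline and Phloretin, differed in 0 of 5.

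With 21 pairs in 5 lines at each dose, 78 comparisons passed at 10 µM, 34 at 1 µM, 1 at 0.1 µM and 0 at 0.01 µM. Among all pairs of compounds given at these doses, adjusted over their own comparisons, 72.4% passed at 10 µM, 44.4% at 1 µM, 28.9% at 0.1 µM and 14.1% at 0.01 µM. Nitroxoline and Niclosamide, a chelator and an uncoupler, passed in 0 of 5 lines at 10 µM. The 95% interval of their log2 difference was -0.35 to 0.40 in SKBR3 and -0.41 to 0.22 in HCC-38, and in ZR-75-1, where it was widest, it ran from -0.91 to 0.06. Tigecycline and Phloretin also passed in 0 of 5 lines, with an interval of -0.38 to 0.36 in SKBR3 and -0.53 to 0.44 in ZR-75-1. Ciclopirox and STF31 at 1 µM passed in BT-20, where the means were 59.4 and 98.8% (log2 difference -0.73 ± 0.15, limma adjusted p = 1.34e-05). They did not pass in the other 4 lines, where the 95% interval was -0.59 to 0.03 in HCC-38 (means 72.4 and 87.8%), -0.44 to 0.29 in MDA-MB-231, -0.35 to 0.40 in SKBR3 and -0.70 to 0.26 in ZR-75-1. At 10 µM Ciclopirox was lower than STF31 in all 5 lines.

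Averaged within the groups on the log2 scale, the chelators were lower than the mitochondrial toxicants at 10 µM in all 5 lines, by -1.07 ± 0.11 in BT-20 (limma adjusted p = 5.97e-21) to -1.45 ± 0.11 in HCC-38 (limma adjusted p = 6.18e-33). They were lower than the inhibitors of glucose use in all 5 lines, by -1.02 ± 0.16 in ZR-75-1 (limma adjusted p = 1.19e-09) to -1.66 ± 0.10 in HCC-38 (limma adjusted p = 4.82e-49). At 1 µM the chelators were lower than the mitochondrial toxicants in 4 lines and lower than the inhibitors of glucose use in 3. The mitochondrial toxicants and the inhibitors of glucose use passed in no line at 10 µM (lowest adjusted p = 0.0784, limma, in BT-20), and passed at 1 µM in SKBR3 only. In all, 18 of 60 contrasts passed, or 30%. Each average joins compounds that themselves differed, since Ciclopirox differed from Nitroxoline, Niclosamide from Tigecycline, and STF31 from Phloretin in every line at 10 µM, so it describes these compounds and not a class of drugs.

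To compare lines within a well, the log2 value of a line minus the mean of the other 4 lines was set against the same quantity in DMSO wells. A factor that multiplies all lines of a well alike cancels in this difference, but an error in the slope of the line through the standard cells, which ran from 0.966 to 1.78 over the 56 wells, does not. The differences of the 5 lines cancel in each well, so a very low line raises those of the others. Calls at the same compound and dose are therefore not independent. Of 140 combinations 22 passed, 11 lower and 11 higher, beside 12.0% lower and 14.1% higher over all compounds and doses. At 10 µM 7 of 35 were lower and 6 higher, beside 23.2% lower and 28.5% higher over all compounds given at this range of doses. MDA-MB-231 was lower than the other lines at 10 µM with Niclosamide (-0.48 ± 0.08, limma adjusted p = 3.29e-08; -0.41 without replicate 1 and -0.56 without replicate 2, whose slope was 1.78), Nitroxoline (-0.42 ± 0.08, limma adjusted p = 2.09e-06) and Ciclopirox (-0.40 ± 0.08, limma adjusted p = 6.78e-06). The Ciclopirox difference turned direction with sgNT alone (0.18, limma adjusted p = 0.846) and did not pass on the percent scale (-5.40 percentage points, limma adjusted p = 0.497). With STF31 it was lower by the largest margin of the 7 compounds at 10 µM (-0.84 ± 0.08, limma adjusted p = 1.54e-22). BT-20 was higher than the other lines with STF31 (0.71 ± 0.07, limma adjusted p = 4.45e-24) and with Ciclopirox (0.57 ± 0.07, limma adjusted p = 4.12e-16). On the percent scale the Ciclopirox difference in BT-20 was 8.71 percentage points and did not pass (limma adjusted p = 0.0749). With Ciclopirox HCC-38 changed side between doses, a case chosen after its values were seen: it was higher than the other lines at 1 µM (0.24, limma adjusted p = 0.0458) and lower at 10 µM (-0.47, limma adjusted p = 8.92e-06). SKBR3 was higher with Nitroxoline (0.30 ± 0.08, limma adjusted p = 0.00181), a difference that reversed with sgNT alone (-0.038, limma adjusted p = 0.977) and was lost without replicate 1 (0.24, limma adjusted p = 0.113).

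AZD7545 was the compound under which ZR-75-1 stood apart, lower than the other lines by -0.82 ± 0.13 at 10 µM (limma adjusted p = 5.22e-09). MDA-MB-231 was higher (0.35 ± 0.08, limma adjusted p = 8.23e-05), in part because the low ZR-75-1 enters the mean of the other lines. Against DMSO, MDA-MB-231 differed by -0.16, beside -0.35 in SKBR3, -0.33 in HCC-38 and -0.27 in BT-20. The MDA-MB-231 difference with AZD7545 was lost without replicate 2 (0.23, limma adjusted p = 0.152). STF31 gave 8 of the 22 calls, 4 at 1 µM and 4 at 10 µM, with HCC-38 and BT-20 higher and SKBR3 and MDA-MB-231 lower at both doses. Phloretin gave 2 calls, both in SKBR3, which differed by -0.23 at 0.01 µM and by -0.23 at 1 µM (limma adjusted p = 0.0276 and 0.0253), although no line of Phloretin passed against DMSO. Both were lost without replicate 2 (-0.16 and -0.15, limma adjusted p = 0.387 and 0.431), and the 1 µM difference reversed with sgNT alone (0.056, limma adjusted p = 0.967). Tigecycline gave 0.

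**Figure D4:**
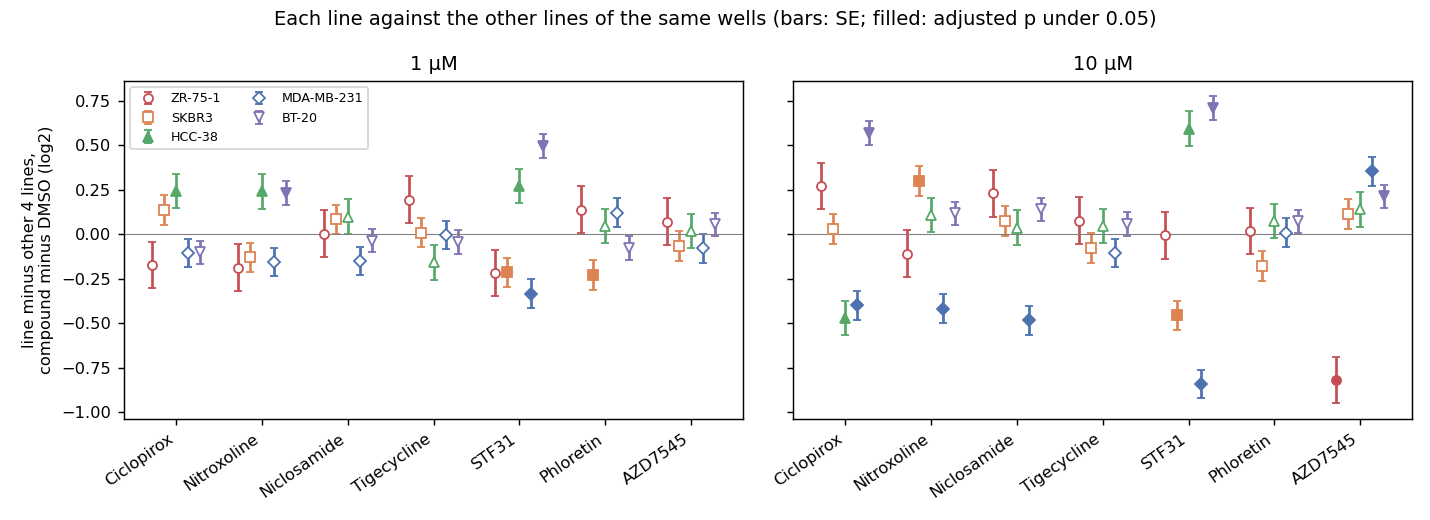
Log2 relative cell number of each line minus the mean of the other 4 lines in the same wells, compound minus DMSO, at 1 µM (left) and 10 µM (right), with SE bars and filled symbols where limma's adjusted p was under 0.05. STF31 spreads the lines from -0.84 (MDA-MB-231) to 0.71 (BT-20) at 10 µM, and ZR-75-1 stands at -0.82 with AZD7545.

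The area under the dose curve (AUC) weights the 4 doses by 0.5, 1, 1 and 0.5, so that a compound at 100% throughout has a value of 300. Averaged over lines it was 214.6 for Ciclopirox, 245.4 for STF31, 251.8 for Nitroxoline, 276.2 for Niclosamide, 284.5 for AZD7545, 304.8 for Tigecycline and 320.8 for Phloretin. Counted from the lowest AUC among the compounds given at these doses, the first 4 hold ranks 34, 53, 59 and 94. STF31 ran from 221.5 in MDA-MB-231 to 279.4 in BT-20, a spread of 57.9, while Ciclopirox ran from 209.8 to 224.2. Phloretin ran from 286.3 in SKBR3 to 338.8 in ZR-75-1, where its 2 replicates were 286.4 and 391.1 and so differed by more than the lines did.

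For each compound that brought a line below 50% at 10 µM, the compounds with the most similar relative cell numbers over the 20 combinations of dose and line are given as a description. Nearest to Ciclopirox were TG101348 (root mean square difference 9.15 percentage points), Crizotinib (9.95) and Canertinib (12.8), all kinase inhibitors, against a median of 32.2 over all others given at these doses. Nearest to Nitroxoline were BMS536924 (9.03), Tivozanib (10.2) and SU11274 (10.4), and nearest to Niclosamide were Tivozanib (9.64), Erastin (10.2), an inhibitor of cystine uptake, and Cabozantinib (10.6). The distance between Nitroxoline and Niclosamide themselves was 10.9. Nearest to STF31 were SixMercaptopurine (10.4), a purine analogue, Saracatinib (12.5) and SU11274 (12.5). SixMercaptopurine held the lines between 54.2 and 70.9% at 10 µM, a narrower span than the 33.7 to 79.2% of STF31. Nearest to AZD7545 were Spautin1 (9.73), Brivanib (9.84) and Etomoxir (10.1), an inhibitor of fatty acid import into mitochondria. ZR-75-1 was the lowest line at 10 µM with all 3, but the distance that picked them used these values. Nitroxoline, Niclosamide and STF31 were lowest in MDA-MB-231. Of their neighbours, BMS536924 and Erastin were too. Tivozanib, Cabozantinib and SU11274 were lowest in ZR-75-1, and SixMercaptopurine and Saracatinib in SKBR3.

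Within a line, each sgRNA population was followed as its share of the reads of that line. The sgRNAs covered heat-shock factors (HSF1, HSF2), the unfolded protein response (ERN1, XBP1, ATF3, ATF4, ATF6), the oxidative stress response (NFE2L2 and KEAP1, its inhibitor), autophagy (ATG7) and the solute carrier SLC35F2. Of 1680 combinations of compound, dose, line and sgRNA, 3 passed, 1 lower and 2 higher (edgeR quasi-likelihood test, Benjamini-Hochberg adjusted over 41760), and 80 had an unadjusted p under 0.05. Over all compounds 0.292% of shares were lower and 0.220% higher, and at the highest dose 0.498% and 0.383%. Those with an unadjusted p under 0.05 were not counted over all compounds. The guides of the 3 calls are shown because the read of the guide is the read of the knockout population, their cut sites not being located here.
sgATG7: CTTGAAAGACTCGAGTGTGT
sgNFE2L2: CACATCCAGTCAGAAACCAG
sgKEAP1: CAGCACCGTTCATGACGTGG

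With Ciclopirox at 10 µM the share of sgATG7, against an enzyme that conjugates proteins to the forming autophagosome, was 7.43 and 7.70% of HCC-38 reads beside 9.42 ± 0.56% (SD, n = 96) in DMSO wells (log2 change -0.32 ± 0.08, edgeR adjusted p = 0.0232). With Niclosamide at 10 µM the share of sgNFE2L2, against the transcription factor NRF2, was 21.9 and 20.8% in HCC-38 beside 18.2 ± 0.77% in DMSO (0.23 ± 0.05, edgeR adjusted p = 0.0054). With STF31 at 1 µM the share of sgKEAP1 was 15.6 and 16.4% in MDA-MB-231 beside 10.0 ± 1.61% in DMSO (0.68 ± 0.18, edgeR adjusted p = 0.0353). Both wells lay on 1 side of the DMSO mean in each case, which is no separate support, since these calls were picked by the same wells. The sgATG7 and sgKEAP1 calls were lost when sgNT reads replaced the line total (log2 change -0.13, edgeR adjusted p = 1, and 0.58, edgeR adjusted p = 0.805). Both were also lost with either replicate left out, and the sgNFE2L2 call without replicate 1 (0.19, edgeR adjusted p = 0.178). All 3 calls stayed in a fit of the 7 compounds and DMSO wells alone. With dose label and replicate number added to that fit as a block, the sgKEAP1 call was lost (0.64, edgeR adjusted p = 0.0755). By gene group, the heat-shock factors passed in 0 of 280 combinations, the unfolded protein response in 0 of 700, the oxidative stress response in 2 of 280, autophagy in 1 of 140 and the carrier in 0 of 140. Their median log2 changes at 10 µM were 0.01, 0.00, 0.04, -0.03 and 0.03, beside -0.02 to 0.01 over all compounds at the highest dose. The share of sgNT passed in 0 of 140 combinations. Its median change at 10 µM, -0.096, was the largest of the groups, beside -0.028 over all compounds at the highest dose.

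On the AUC, 22 of the 35 pairs of line and compound were cytotoxic enough to be compared by the study's criteria, and all 5 of Phloretin were left out by them. The criteria read sgNT alone, so they kept Tigecycline in SKBR3 and MDA-MB-231, where sgNT at 10 µM was 65.6 and 82.99% although no line value of Tigecycline passed against DMSO. They left out Nitroxoline in MDA-MB-231, where sgNT was 54.2% at 0.01 µM and 37.7% at 10 µM. Of the comparisons of an sgRNA with sgNT in the 22 pairs, 0 passed and 18 had an unadjusted p under 0.05 (limma, adjusted over 5150), and over all compounds 0.0777% passed. The smallest adjusted p was 0.15, for sgXBP1 in SKBR3 with Nitroxoline (AUC 275.4 and 305.1 beside 192.8 and 199.5 for sgNT). In the same wells sgNT was the lowest of the 12 populations of SKBR3 at 10 µM (40.004%, the highest being sgATF6 at 76.6%). At 10 µM the 12 populations ran from 11.1 to 18.3% with Ciclopirox in HCC-38 and from 21.1 to 84.6% with AZD7545 in ZR-75-1. With Phloretin in ZR-75-1 they ran from 70.6 to 206.95%. In both ZR-75-1 cases the highest was sgKEAP1, a population that the study itself set aside in that line for its variation. It was also the highest of ZR-75-1 at 10 µM with Nitroxoline (86.6%), Niclosamide (98.2%), Tigecycline (188.5%) and STF31 (77.1%), but not with Ciclopirox. The ZR-75-1 means given above include it.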

How the data were processed

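Pooled cells were lysed in the wells, the barcodes were amplified and sequenced, and the submitters' processing notes name bcl2fastq. The authors deposited raw read counts per pair of line and sgRNA barcode for each well, without molecular identifiers. They also deposited relative cell numbers, a ratio given as a percent: reads were turned into cells with the 5 spike-in standards of the well and divided by the median of the DMSO wells. The 48 wells of 6 compounds with few reads were not used.

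Line values (log2 of the mean over 12 sgRNA populations) were fitted in limma 3.58.1 (R 4.3.3) over 1488 wells, with 791 residual degrees of freedom, and tested against DMSO, between compounds, between groups of compounds and between lines. Read shares within a line were tested with the edgeR 4.0.16 quasi-likelihood test on counts, and DESeq2 1.42.0 was an alternative. The trended dispersion was estimated once and reused for the edgeR alternatives. AUC differences from sgNT were tested in limma. All p-values are two-sided and Benjamini-Hochberg adjusted at a threshold of 0.05. Simulated data were used to try the limma fit against DMSO, an edgeR fit of shares and a limma fit of the AUC. The other steps were not tried in that way.

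Compounds were selected by name, not by value, but they and the gene lists were chosen with earlier results of these data known. Named lines were the 2 with the lowest adjusted p per compound, named sgRNAs the 3, and named other compounds the 3 nearest for compounds with a line below 50% at 10 µM. Replicate numbers were not treated as pairing the wells in the main fits. Alternatives were the percent scale, sgNT alone, the median, summed cells, reads over standard reads, leaving out 2 variable ZR-75-1 populations, the replicate block and leaving out each replicate. Intervals cover 95% of the fitted error. The deposited ratios could be recomputed from the counts, and the read depth per well is given with the results.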

Additional observations from a re-analysis of the deposited data

Results flagged for a closer look

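The following differences between a line and the other 4 lines passed limma's test of the difference itself. With Ciclopirox at 10 µM, BT-20 differed by 0.57 and MDA-MB-231 by -0.40 on the log2 scale, the latter reversing with sgNT alone (0.18). With Nitroxoline at 10 µM, MDA-MB-231 differed by -0.42 and SKBR3 by 0.30, the latter reversing with sgNT alone (-0.038). With Niclosamide at 10 µM, MDA-MB-231 differed by -0.48. With STF31 at 10 µM, BT-20 differed by 0.71 and MDA-MB-231 by -0.84. With Phloretin, SKBR3 differed by -0.23 at 1 µM, reversing with sgNT alone (0.056), and by -0.23 at 0.01 µM. With AZD7545 at 10 µM, ZR-75-1 differed by -0.82 and MDA-MB-231 by 0.35.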

How the results depend on the processing

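The 32 calls against DMSO became 25 to 35 under the alternatives, and 28 and 29 without replicate 1 or 2. Set against the 12 DMSO wells of their own dose and replicate, all 32 stayed negative (smallest -0.34) and no difference moved by more than 0.074. With sgNT alone, a single population, 66 pair calls were left (26.9% of 420 before) and line calls fell from 22 to 6, and 3 line differences reversed without passing: Ciclopirox at 10 µM in MDA-MB-231 (0.18), Nitroxoline at 10 µM in SKBR3 (-0.038) and Phloretin at 1 µM in SKBR3 (0.056). On the percent scale the Ciclopirox line difference in MDA-MB-231 was -5.40 points (limma adjusted p = 0.497). Leaving out a replicate gave 86 to 95 pair calls, 14 to 15 group calls and 18 to 21 line calls. The 3 sgRNA share calls became 5 with sgNT reads as offset, 9 with DESeq2, and 1 without replicate 1 and 2 without replicate 2. The methods' test on the AUC called 13 where limma called 0, and 0 of them after Benjamini-Hochberg adjustment. Leaving out a replicate was not run for the AUC test, which then has no residual degrees of freedom.

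Deviations of same-numbered wells had a median correlation of -0.13 over 21 pairs of compounds (-0.46 to 0.60, 4 above 0.1). The labels do not say which plate held a compound well, so pairing within a plate was not tested. With the replicate block there were 32 calls against DMSO, 18 group calls, 19 line calls, 2 share calls and 0 AUC calls. Counting error covers reads only, and shallow wells limit the shares most.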

Other observations

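The methods' test called 6 of its 13 AUC differences in 1 line and compound, SKBR3 with Nitroxoline. There the AUC of sgNT was 192.8 and 199.5, beside 249.3 and 250.5 for the mean of the 12 populations. At 10 µM sgNT was 40.004% and the mean 56.7%, and at 0.01 µM sgNT was 82.9% and the mean 94.4%. These 2 doses each enter the AUC with a weight of 0.5, so the low AUC of sgNT does not rest on 10 µM alone.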
